A study of Arabidopsis thaliana with 26 samples.

Results

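The comparison was of T87 cells given salicylic acid (SA) for 24 h with T87 cells given ethanol for 24 h, over all 22746 probe sets of the array. It rested on 4 of the 26 arrays of the series, the 2 whose source name gave SA for 24 h and the 2 whose source name gave the control for 24 h. T87 is a suspension-cultured line of Arabidopsis thaliana, grown in flasks under a cycle of light and dark. The SA cells had received 300 uM SA, and the ethanol cells 0.6% ethanol. The labels do not state whether the SA cells received ethanol too, nor whether the 2 arrays of a group came from separate cultures, so that p-values here are measures of how far these arrays differ, and that spread could be technical. Other arrays served to follow the same genes: SA at 300 uM for 3 h (2 arrays) and ethanol for 3 h (2 arrays), and abscisic acid (ABA) at 25 uM with SA at 300 uM for 24 h (2 arrays) and ABA at 25 uM alone for 24 h (3 arrays). Levels were also read on arrays of ABA alone for 3 h (3 arrays), of methyl jasmonate at 100 uM for 3 h and for 24 h (2 arrays each), and of ABA with methyl jasmonate for 24 h (2 arrays). For 4 arrays of combined hormones at 3 h the title and the source name contradict each other, and they took no part in any comparison given here beyond the pooled spread.

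SA is a phenolic hormone that accumulates in plants under attack by pathogens. It is perceived by proteins of the NPR family, which act with TGA transcription factors on defence genes, and cells limit it by joining it to glucose, amino acids or methyl groups. SA and jasmonate signalling are known for acting against each other in Arabidopsis, and ABA, the hormone of drought responses, is known to interfere with SA responses.

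Levels are log2 signals as deposited, and a change is the SA mean minus the ethanol mean on that scale, so that 1 unit is 2-fold. In such bulk RNA fewer cells of a kind and less transcript per cell cannot be told apart. A probe set was called when its p-value from limma was under 0.05 after the Benjamini-Hochberg adjustment, made over all 22746 probe sets. The median level over all probe sets was 5.24 and 5.28 on the SA arrays, against 5.29 and 5.26 on the ethanol arrays. Over all probe sets the replicates correlated at r = 0.980 for SA and r = 0.974 for ethanol, and the SD of the difference between replicates was 0.458 for SA and 0.526 for ethanol, so the precision is that of 2 arrays a group. Of the organ and cell type markers fixed for the culture, 2 were measured under a name. FAMA, a guard cell transcription factor, stood at 3.35 and 3.40 on the SA arrays and at 3.36 and 3.40 on the ethanol arrays. EXPA7, a root hair expansin, stood at 3.60 and 3.44 on the SA arrays and at 3.21 and 3.15 on the ethanol arrays, and was not called (0.34 ± 0.34, adjusted p = 1).

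More probe sets were called higher with SA than lower. Of the 22746 probe sets, 85 were called (0.374%), of which 82 were higher with SA (0.361%) and 3 were lower (0.0132%). Among the 82, 81 rose at least 2-fold and 58 at least 4-fold, and 12 had a change of 5 log2 units or more. The median rise of the 82 was 2.62 and the largest was 7.83, while the median change of all probe sets was 0.00. On each of the 82, both SA arrays lay above both ethanol arrays, an order that 15.3% of all probe sets had, and 14.2% of all had the opposite order. At an unadjusted p under 0.05 there were 567 probe sets (2.49%), fewer than the 5% that unchanged features would give. A fit of the 4 arrays with replicate number as a block was added after the data were seen. There 2698 had an unadjusted p under 0.05, and 285 were called higher and 138 lower. The labels do not say that replicate numbers pair arrays. The split between higher and lower calls moved with the fit: leaving out ethanol replicate 2 gave 64 higher and 34 lower, and estimating the spread from the 4 arrays of the comparison alone gave 28 higher and 0 lower (907 probe sets had an unadjusted p under 0.05 in that fit).

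**Figure D1:**
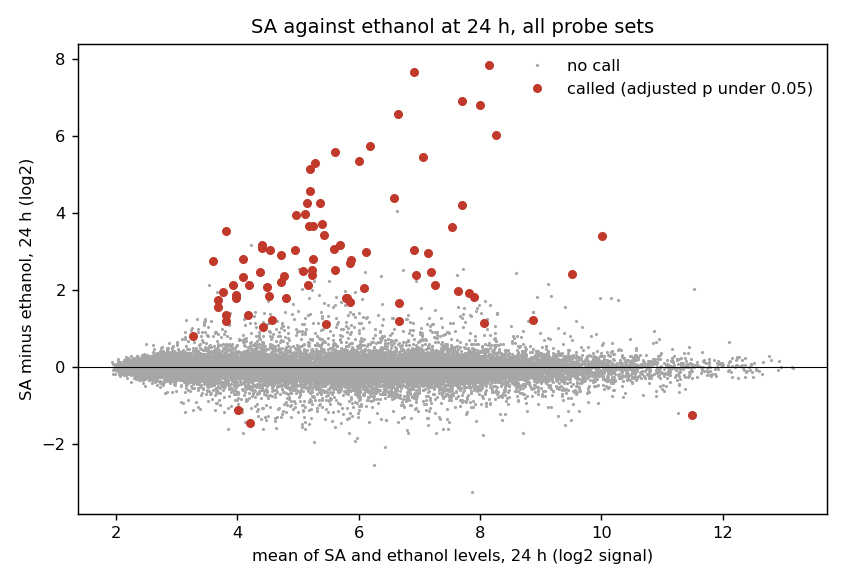
Change with SA at 24 h (SA minus ethanol, log2) against the mean level of both groups (log2 signal) for all 22746 probe sets, with the 85 called in red and the rest in grey. The 82 called above 0 reach up to 7.83, and the 3 called below 0 reach down to -1.44.

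Of the 82 raised probe sets, 45 matched 1 gene (0.335% of the 13436 probe sets that did so), 4 matched several genes and 33 had no gene in the annotation used. Among the 45 genes, called the raised genes from here on, 28 rose at least 4-fold and 8 at least 16-fold. Only 6 of the 45 carry a symbol beyond their locus code in that annotation, namely UGT76B1, cwINV6, IAGLU, CML43, scpl16 and GRX480, and the others are given by locus. Of the 3 lowered probe sets 2 matched 1 gene (0.0149% of such probe sets).

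The conjugation and turnover of SA was represented by 4 measured genes of the 13 listed. Of these, 1 was called higher and none lower, where 0.361% and 0.0132% of all probe sets were. UGT76B1, a glucosyltransferase that acts on SA and on isoleucic acid, measured 10.84 and 11.71 on the SA arrays, against 5.19 and 5.33 on the ethanol arrays. The groups were over 5 log2 units apart. The change was 6.02 ± 0.45 (limma standard error, 2 arrays a group; adjusted p = 2.2e-07), or 64.8-fold. GH3.5, which joins amino acids to auxin and SA, had 9.39 and 9.40 with SA and 8.42 and 7.97 with ethanol. Its SA arrays lay above both ethanol arrays, but the change of 1.202 ± 0.65 did not pass the test (adjusted p = 1). That standard error was pooled over all groups of the series, among them methyl jasmonate at 24 h, with 11.05 and 8.03. UGT74F1, another SA glucosyltransferase, and BSMT1, which makes methyl salicylate, stood between 2.43 and 3.85 on all 4 arrays with changes of 0.24 and -0.15. From the list of SA synthesis 1 of 12 genes was measured, AIM1, an enzyme of fatty acid beta-oxidation, with 8.04 and 8.01 on the SA arrays and 8.01 and 8.03 on the ethanol arrays.

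In SA perception and signalling 4 of 25 listed genes were measured. Of these, 1 was called higher, where 0.361% of all probe sets were. GRX480, a glutaredoxin that binds TGA factors and is known for repressing a jasmonate-responsive defensin, measured 6.38 and 5.51 on the SA arrays and 3.75 and 3.43 on the ethanol arrays. The groups did not overlap, and the change was 2.35 ± 0.46 (adjusted p = 0.0256). That call did not hold without SA replicate 1 (change 1.92, adjusted p = 0.557), without ethanol replicate 1 (2.52, 0.137) or without ethanol replicate 2 (2.19, 0.231). The other members had changes of 0.33 for SARD4, an enzyme of pipecolic acid synthesis, 0.25 for NPR2, a relative of the SA receptor, and -0.24 for SAG101, a partner of immune receptor signalling, each with an adjusted p of 1. Of the 18 listed SA response genes 2 were measured, AT5G03350, described further on, and WRKY53, a transcription factor of senescence and defence. WRKY53 had 10.57 and 8.52 with SA and 11.04 and 8.74 with ethanol, so that replicate 1 was the higher array in both groups and the groups overlapped.

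Several genes given here by locus had large rises. AT5G03350 measured 10.88 and 11.44 on the SA arrays and 4.28 and 4.23 on the ethanol arrays (change 6.90 ± 0.39, adjusted p = 5.01e-09, 119.7-fold). AT1G19960 measured 10.13 and 9.72 with SA and 3.58 and 3.15 with ethanol (6.56 ± 0.29, adjusted p = 1.44e-10, 94.4-fold). In both genes the groups were over 6 log2 units apart. AT5G41280 had 8.86 and 9.24 on the SA arrays, against 3.26 and 3.35 on the ethanol arrays (5.74 ± 0.34). AT1G15640 had 9.86 and 9.69 on the SA arrays, against 4.47 and 4.20 on the ethanol arrays (5.44 ± 0.25). None of these groups overlapped. AT5G22555, with 7.75 and 8.10 on the SA arrays and 2.59 and 2.68 on the ethanol arrays, had the smallest adjusted p of the raised genes (5.29 ± 0.17, adjusted p = 3.7e-12). AT5G11420 had 8.83 and 8.73 with SA and 4.33 and 4.45 with ethanol (4.39 ± 0.18). AT1G24320 had 6.83 and 7.35 with SA and 3.20 and 3.05 with ethanol (3.97 ± 0.23). For these 3 loci the standard error was the lowest among the 10 raised genes with the largest changes.

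Among the genes with a symbol was cwINV6, a fructan exohydrolase of the cell wall invertase family. It measured 8.58 and 8.77 on the SA arrays and 3.45 and 3.20 on the ethanol arrays. The groups were far apart, and the change was 5.35 ± 0.65 (adjusted p = 0.000121, 40.7-fold). It was the only member of the 6 listed cell wall invertases that was measured under a name. IAGLU, which joins glucose to the auxin indole-3-acetic acid, measured 7.41 and 6.85 with SA and 4.37 and 3.75 with ethanol (3.07 ± 0.35, adjusted p = 5.26e-05). CML43, a calmodulin-like calcium sensor, measured 5.81 and 6.55 with SA and 3.21 and 3.33 with ethanol (2.91 ± 0.27, adjusted p = 3.06e-06). The serine carboxypeptidase-like gene scpl16 measured 4.18 and 5.75 with SA and 2.26 and 2.18 with ethanol (2.74 ± 0.37). Its SA arrays differed from each other by more than those of most raised genes, as did those of AT2G44240, with 7.94 and 5.93 on the SA arrays and 3.10 and 2.88 on the ethanol arrays.

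**Figure D2:**
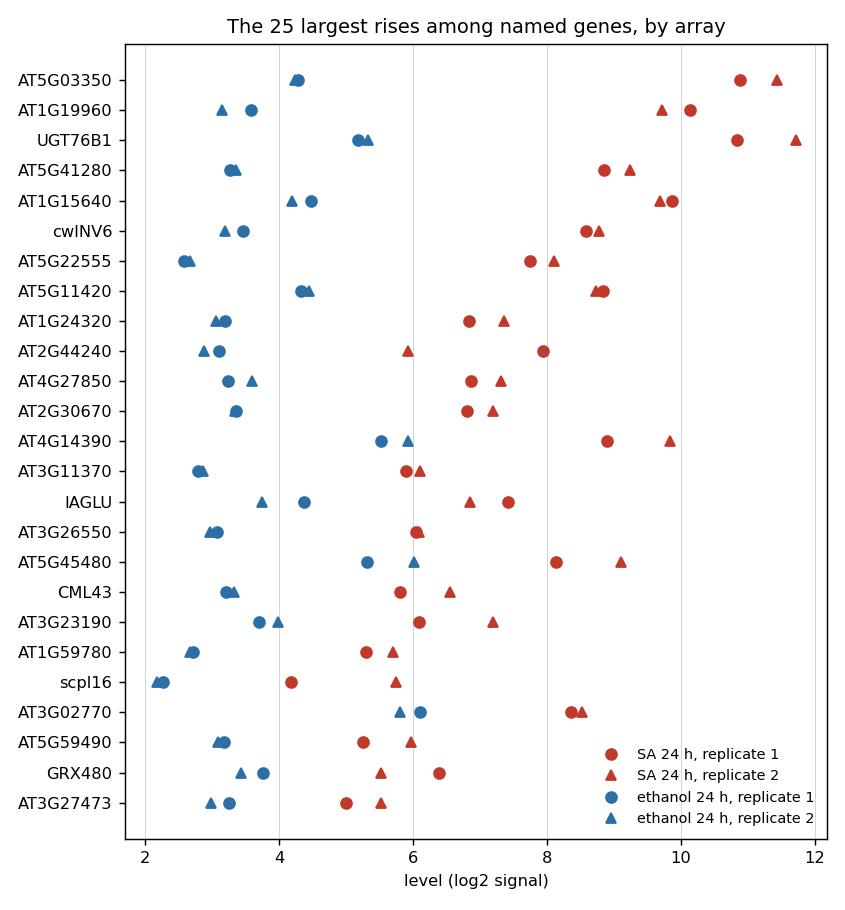
Level (log2 signal) on each of the 4 arrays for the 25 raised genes with the largest changes, from AT5G03350 at the top to AT3G27473 at the bottom, with SA arrays in red, ethanol arrays in blue, circles for replicate 1 and triangles for replicate 2. On each gene both red points lie to the right of both blue points, and the distance between the red points is widest for AT2G44240 and scpl16.

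Few members of the enzyme and regulator families measured around these genes passed the test. Families were gathered by words in the gene symbols and synonyms of the annotation, which many loci lack, so they are not complete. GRX480, itself a glutaredoxin, and IAGLU were not among them. Neither was AT5G03350, a lectin-like gene that the list of SA response genes names LLP1. Each of these genes was called higher. Of 51 UDP-glycosyltransferases measured through the family list, 1 was called higher (0.361% of all probe sets were) and none lower, and their median change was 0.03. The called member was UGT76B1 (6.02). Of the members so gathered, none of 12 glutathione S-transferases (median 0.00), 29 probe sets of cytochrome P450 enzymes (0.01), 7 WRKY transcription factors (0.23), 10 glutaredoxins and thioredoxins (0.01), 5 class III peroxidases (0.06) or 5 lectin family proteins (0.05) was called in either direction. Among the members without a call the largest change was that of the P450 gene CYP71B23, with 6.63 and 6.20 on the SA arrays and 5.03 and 4.59 on the ethanol arrays (1.61 ± 0.88, adjusted p = 1). Its groups did not overlap, but its standard error, pooled over all groups of the series, was over 3 times that of AT1G15640.

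Jasmonate genes did not pass the test in either direction. All 7 measured members of the list of 17 were without a call, with changes between -0.60 and 0.25 and a median of -0.03. PDF1.2a, the defensin widely used as a jasmonate marker, measured 3.71 and 4.01 on the SA arrays and 3.96 and 3.83 on the ethanol arrays. With methyl jasmonate at 24 h it measured 3.74 and 3.64, no higher than with ethanol. The 7 genes stood between 2.89 and 4.36 on the ethanol arrays, low levels that left little room for a fall. Whether SA can lower them therefore cannot be read from these arrays. Mitosis genes, 5 measured of 8, were without a call as well. Their changes ran from -0.61 to -0.17 with a median of -0.39, below the median of all probe sets, and on 3 of the 5 both SA arrays lay below both ethanol arrays, an order that 14.2% of all probe sets had. Each of the 5 had an adjusted p of 1, and for 4 the change was smaller than its standard error. That error was pooled over all groups of the series and need not reflect the arrays compared. For AUR1 it was 0.83, with SDs of 0.008 on the SA arrays and 0.21 on the ethanol arrays. AUR2 and 3xHMG-box2 also had both SDs below it, while TOPII and KINESIN-12B had an SA SD above it. The 5 measured ABA response genes had changes between -0.55 and 0.36 and no call. All but COR47 stood between 2.51 and 4.04 on the ethanol arrays, which also left little room for a fall.

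The 3 lowered probe sets changed by less than the median rise of 2.62. AT4G39840 measured 3.75 and 3.21 on the SA arrays and 5.50 and 4.35 on the ethanol arrays, a change of -1.44 ± 0.29 (adjusted p = 0.0333). AT5G17600 measured 3.54 and 3.36 with SA and 4.81 and 4.33 with ethanol (-1.12 ± 0.20, adjusted p = 0.00993). Neither pair of groups overlapped, but both genes lost the call with single arrays left out. AT4G39840 had a change of -0.87 without ethanol replicate 1 (adjusted p = 0.898), of -1.71 without SA replicate 1 (0.0507) and of -1.18 without SA replicate 2 (0.725). AT5G17600 had -0.88 (0.341), -1.21 (0.0534) and -1.03 (0.219) in the same fits. For both genes the ethanol 24 h mean was the highest of all groups of the series, at 4.93 for AT4G39840 and 4.57 for AT5G17600. Ethanol at 3 h had means of 3.28 and 4.15, and methyl jasmonate at 24 h had 3.24 and 3.45. The lowered probe set without a gene, 259544_at, had 10.43 and 11.33 on the SA arrays and 11.89 and 12.35 on the ethanol arrays (-1.24 ± 0.24, adjusted p = 0.0234). Its ethanol arrays at 24 h were themselves below those at 3 h, which had 13.43 and 13.43.

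To ask which of the raised transcripts were already up at the earlier time, their changes were read in SA minus ethanol at 3 h, on 4 arrays that the 24 h comparison did not use. In that comparison 31 probe sets were called higher (0.136%) and 1 lower (0.0044%), 0.141% in all. Of the 82 raised at 24 h, 29 were among the 31, none was called lower, and 77 had a change above 0, as 50.2% of all probe sets did. The median change of the 82 was 0.90 at 3 h, against 2.62 at 24 h by the choice of these probe sets. Of the 45 raised genes, 9 were called at 3 h, and 42 had a change above 0.

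The 9 genes called at both times included the 3 with the largest changes at 24 h. AT5G03350 had a change of 6.87 at 3 h and 6.90 at 24 h, AT1G19960 of 5.79 and 6.56, and UGT76B1 of 5.22 and 6.02. The SA arrays at 3 h stood at 10.30 and 11.35 for UGT76B1, and the ethanol arrays at 3 h at 5.58 and 5.63, so that at both times the groups were more than 4 log2 units apart. AT5G41280 (3.41 at 3 h, 5.74 at 24 h), AT1G15640 (3.02, 5.44), AT4G14390 (2.88, 3.64), AT5G45480 (2.59, 2.96), AT3G26550 (1.71, 3.04) and AT3G02770 (1.43, 2.48) completed the group.

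Other genes had small changes and no call at 3 h. AT5G11420 had 4.85 and 4.66 on the SA arrays at 3 h and 4.67 and 4.79 on the ethanol arrays at 3 h, a change of 0.02 ± 0.18, and its groups overlapped there. AT5G22555 had 3.40 and 3.17 with SA at 3 h and 2.90 and 2.89 with ethanol at 3 h, a change of 0.39 ± 0.17 that was not called. At 24 h the same loci were 21.0-fold and 39.3-fold higher with SA. The change at 24 h minus the change at 3 h was tested over all probe sets in the same fit, where 15 were called, all of them higher (0.0659%), and 368 had an unadjusted p under 0.05. All 15 were among the 82, and 12 of them were raised genes, led by AT5G22555 (4.91 ± 0.25, adjusted p = 4.75e-09), AT5G11420 (4.37 ± 0.25, adjusted p = 2.08e-08) and AT2G44240 (3.46 ± 0.57, adjusted p = 0.0183). This test includes the 24 h arrays by which the genes were chosen. It was sensitive to single arrays: the number of raised genes called fell to 6 without SA 3 h replicate 2 and to 6 without ethanol 24 h replicate 2, to 7 without either ethanol 3 h array or without ethanol 24 h replicate 1, and to 4 with the spread of the 8 arrays alone.

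cwINV6 was not called at 3 h, although its SA arrays, at 7.08 and 7.02, lay above its ethanol arrays, at 5.19 and 3.61 (2.65 ± 0.65, adjusted p = 0.323). Its ethanol level at 3 h was the more spread of the pair, and the difference between the times did not pass the test either (2.70 ± 0.92). GRX480 had a change of 0.67 ± 0.46 at 3 h, and IAGLU one of 1.49 ± 0.35 (adjusted p = 0.255).

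**Figure D3:**
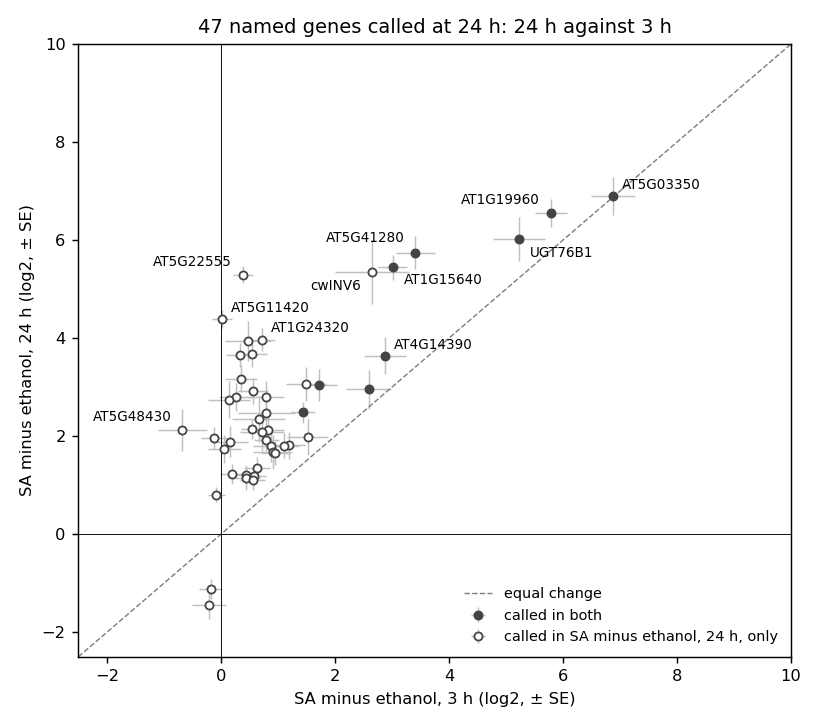
SA minus ethanol at 24 h (vertical axis) against SA minus ethanol at 3 h (horizontal axis), both log2 with standard errors from limma, for the 45 raised and 2 lowered genes called at 24 h. Filled points are called at both times and open points at 24 h alone. The line marks equal change, and AT5G22555, AT5G11420 and AT1G24320 stand high above it near 0 on the horizontal axis.

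A second measure of the raised genes came from arrays with ABA in the medium, ABA+SA at 24 h minus ABA at 24 h, which share no array with SA minus ethanol. In that comparison 1035 probe sets were called higher (4.55%) and 550 lower (2.42%), 6.97% in all. Of the 82 raised probe sets 55 were called higher with ABA present, none was called lower, and 76 had a change above 0, as 49.4% of all probe sets did. The median change of the 82 was 1.84. Of the 45 raised genes 27 were called higher. Without ABA+SA replicate 2 the comparison had 395 calls in all in place of 1585, without ABA+SA replicate 1 it had 934, and the raised genes called were 23 and 27 of the 45 in these fits. Of the 45, 9 were called both at 3 h and with ABA, 18 with ABA and not at 3 h, and 18 in neither.

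Some genes rose by 4.91 log2 units or more with ABA present too. UGT76B1 had 10.59 and 10.77 on the ABA+SA arrays and 5.13, 4.42 and 4.88 on the ABA arrays, a change of 5.87 ± 0.41 (adjusted p = 9.38e-08), against 6.02 without ABA. AT5G11420 had 9.76 and 10.07 with ABA+SA and 4.90, 5.18 and 4.94 with ABA (4.91 ± 0.16), and AT1G24320 had 8.34 and 8.77 with ABA+SA and 3.10, 3.65 and 3.14 with ABA (5.26 ± 0.21). In all 3 the ABA+SA arrays stood far above every ABA array. AT1G19960 had its largest change here, 7.98 ± 0.26 with ABA and 6.56 ± 0.29 without. The difference between these 2 effects was 1.41 ± 0.39 and did not pass the test (adjusted p = 0.125). For UGT76B1 the difference was -0.15 ± 0.61 (adjusted p = 0.959).

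Other genes had smaller changes when ABA was present. cwINV6 had 3.92 and 4.23 on the ABA+SA arrays and 3.52, 4.26 and 3.53 on the ABA arrays, groups that overlapped (0.30 ± 0.59, adjusted p = 0.813). AT5G22555 had 3.09 and 3.02 with ABA+SA and 2.76, 2.64 and 2.72 with ABA (0.35 ± 0.16, adjusted p = 0.204). With SA alone cwINV6 had been 40.7-fold and AT5G22555 39.3-fold above ethanol. AT5G03350 rose in both settings, but by 3.44 ± 0.35 with ABA present, where it had 8.21 and 7.82 with ABA+SA and 4.09, 4.73 and 4.92 with ABA. The SA effect with ABA minus the SA effect without ABA, a test added after the data were seen, was called for 165 probe sets (0.725%), 57 higher (0.251%) and 108 lower (0.475%). Of the 45 raised genes 11 were called lower and none higher, again with the choice of genes resting on arrays in the test. Largest were cwINV6 (-5.05 ± 0.88, adjusted p = 0.00817), AT5G22555 (-4.94 ± 0.24, adjusted p = 2.03e-09), AT5G03350 (-3.47 ± 0.53, adjusted p = 0.00295) and AT2G44240 (-3.43 ± 0.55, adjusted p = 0.00412). The number was 6 with the spread of the arrays in the test alone, and between 9 and 12 when any of its 9 arrays was left out.

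**Figure D4:**
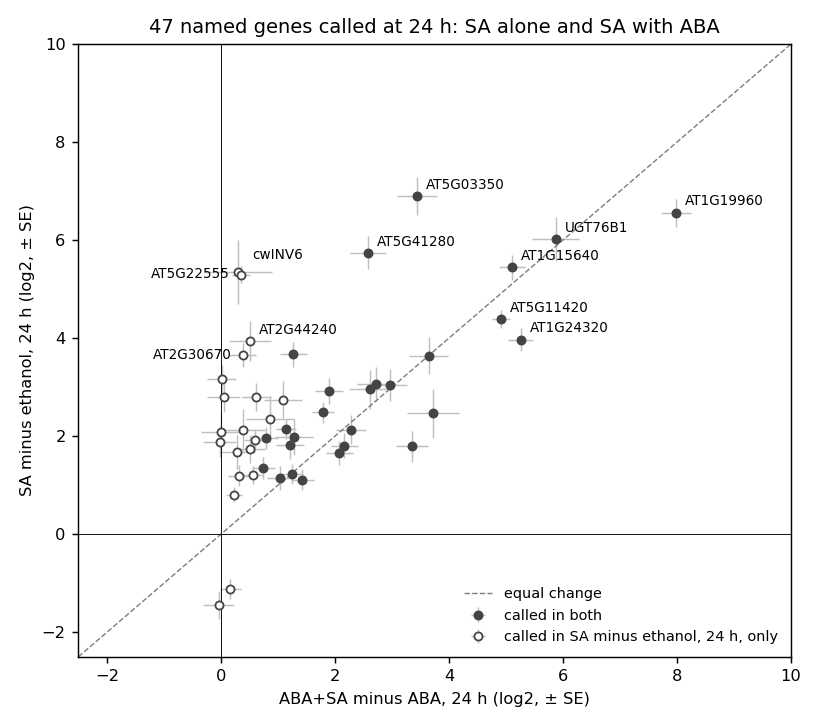
SA minus ethanol at 24 h (vertical axis) against ABA+SA minus ABA at 24 h (horizontal axis), both log2 with standard errors from limma, for the 45 raised and 2 lowered genes called in SA minus ethanol. Filled points are called in both comparisons and open points in SA minus ethanol alone, and the line marks equal change. UGT76B1 and AT1G15640 lie near the line, while cwINV6 and AT5G22555 lie near 0 on the horizontal axis.

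Of the 5 measured ABA response genes, 3 were called lower with SA where ABA was present (2.42% of all probe sets were), and none without ABA. LTI30, a dehydrin, had 5.54 and 3.60 on the ABA+SA arrays and 10.67, 8.45 and 10.02 on the ABA arrays (-5.14 ± 0.95, adjusted p = 0.00332). LEA4-5, a late embryogenesis abundant protein, had 6.69 and 6.29 with ABA+SA and 10.004, 8.87 and 9.55 with ABA (-2.98 ± 0.36, adjusted p = 5.16e-05). COR15A, a chloroplast protein of cold and drought responses, fell by 2.54 (adjusted p = 0.0195). On the SA arrays without ABA the same genes measured between 2.92 and 3.60, and on the ethanol arrays between 2.87 and 4.04, without a call. Such low levels left little room for a fall without ABA. The absent calls there, and the difference tested next, therefore do not show whether SA can lower these genes without ABA. The SA effect with ABA minus that without ABA passed the test for LEA4-5 (-3.21 ± 0.54, adjusted p = 0.00589), and did not for LTI30 (-4.66 ± 1.41, adjusted p = 0.175) or COR15A (-1.995 ± 0.92, adjusted p = 0.443).

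Levels of the raised genes in the other groups are given as a description, since the genes were chosen for high SA values at 24 h. Set against the 7 groups without SA (ethanol, ABA and methyl jasmonate at 3 h and 24 h, and ABA with methyl jasmonate at 24 h), the SA 24 h mean was the highest for 44 of the 45, and by more than 1 log2 unit for 34. Over all probe sets it was the highest for 12.5%, and by more than 1 log2 unit for 0.413%. Of the 7, ethanol at 24 h lies below SA by the choice of the genes, and it was the lowest of the 7 for 13 of the 45. The share of all probe sets with ethanol at 24 h lowest was not counted. UGT76B1 had 11.27 with SA at 24 h, and the next group without SA, ABA at 3 h, had 6.23. AT5G03350 had 11.16 with SA at 24 h, and no group without SA exceeded 4.58.

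The exception was AT4G38540. It measured 8.80 and 8.77 on the SA 24 h arrays and 6.73 and 6.98 on the ethanol 24 h arrays (1.93 ± 0.22, adjusted p = 7.2e-05), but 9.13 and 8.79 on the ethanol 3 h arrays, 9.48, 8.88 and 9.19 with ABA at 24 h and 9.22 and 9.28 with methyl jasmonate at 24 h. Its ethanol 24 h arrays were thus the low ones of the series. GRX480 had 5.95 as its SA 24 h mean and 5.91 as its methyl jasmonate 24 h mean (arrays at 5.44 and 6.38), which do not differ beyond their spread. AT5G22550 had a mean of 5.53 with SA and 5.47 with ABA at 24 h, and 3.45 with ethanol. AT4G38540 and AT5G22550 rank below the 25 largest rises and were chosen for the text after their values were seen.

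**Figure D5:**
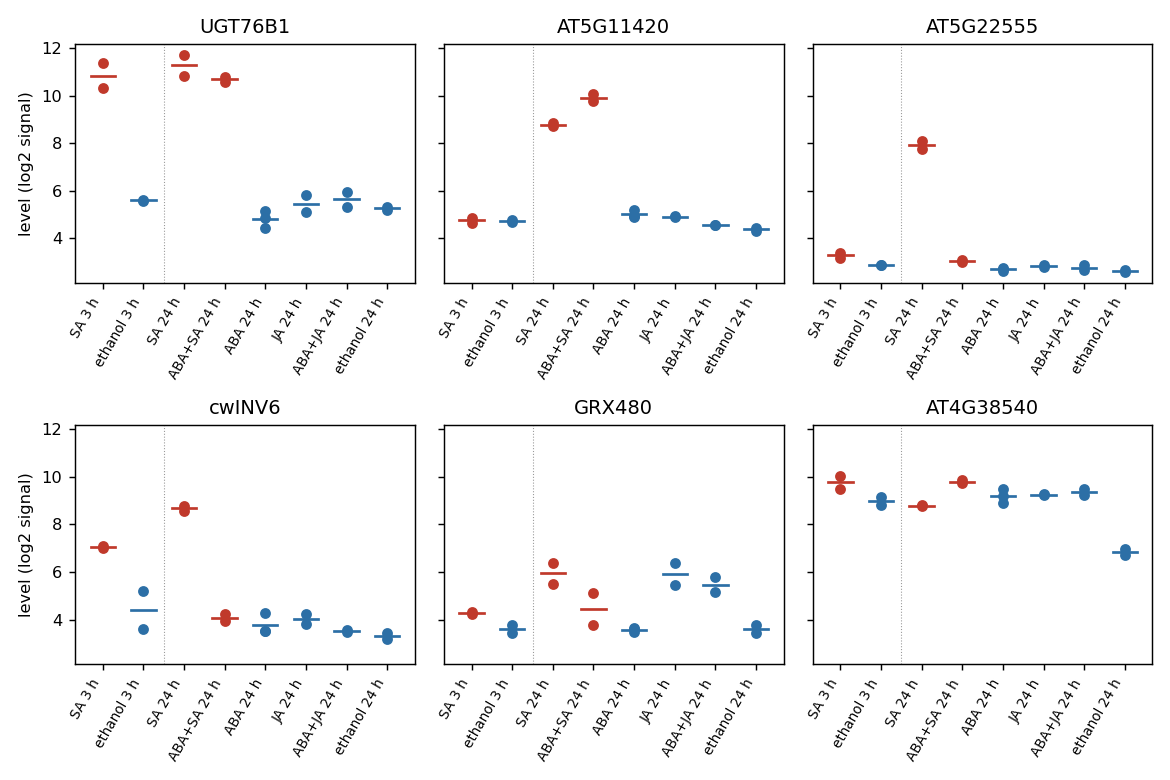
Level (log2 signal) of 6 genes on each array of 8 groups, SA and ethanol at 3 h left of the dotted line and SA, ABA+SA, ABA, methyl jasmonate (JA), ABA with methyl jasmonate and ethanol at 24 h right of it. Points are arrays, bars are group means, red marks groups with SA and blue those without. AT5G11420 is high in the 24 h groups with SA, AT5G22555 in SA 24 h alone, GRX480 also with methyl jasmonate, and AT4G38540 is lowest with ethanol at 24 h.

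Some raised genes lay near each other on the chromosomes. In the order of protein-coding genes of the RefSeq annotation (TAIR10.1), 9 of the 45 had another of the 45 within 5 loci, in 6 pairs, of which 1 was of adjacent loci. Of the 12179 other measured genes 177 had one of the 45 within 5 loci (1.45%). Of the 9, UGT76B1 (AT3G11340), AT3G11370 and AT3G11390 lay together on chromosome 3, with changes of 6.02, 3.17 and 1.74. The measured loci between them, AT3G11350 and AT3G11380, had changes of 0.25 and -0.19 without a call. AT5G22555 and AT5G22550, on chromosome 5, are adjacent loci with changes of 5.29 and 2.08. With ABA present AT5G22550 had 4.75 and 6.19 on the ABA+SA arrays and 5.72, 5.71 and 4.97 on the ABA arrays, and these groups overlapped. AT2G30650 and AT2G30670, on chromosome 2, had 1.96 and 3.65, and AT2G30660 between them had 1.33 ± 0.36 without a call (adjusted p = 0.28). AT3G27473 and AT3G27500, also on chromosome 3, had 2.15 and 1.35. Single arrays decided some of these calls, which AT5G22550 and AT3G27500 each lost in 3 of the 4 fits without an array of the comparison, and AT3G11390 in 2. These loci were looked at with their values known. Whether probes of a gene in such a pair also bind the transcript of its neighbour was not tested.

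Some of the largest rises had no gene in the annotation used. Of the 10 largest rises, 4 were on probe sets without a single matched gene. The largest of all, 249890_at, measured 12.08 and 12.05 on the SA arrays and 4.68 and 3.78 on the ethanol arrays (7.83 ± 0.70, adjusted p = 2.4e-06). Next was 254975_at, with 10.25 and 11.23 on the SA arrays and 2.93 and 3.24 on the ethanol arrays (7.66 ± 0.57, adjusted p = 2.01e-07). Both were called at 3 h too, with changes of 8.46 and 6.35, and with ABA present, with 6.11 and 6.85. The probe sets called at 24 h that did not match 1 gene, 38 with the lowered one, were called higher at 3 h in 20 cases and with ABA present in 28.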

How the data were processed

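Total RNA of the T87 cells was hybridised to single-channel oligonucleotide arrays. The deposited log2 values were made by the authors with RMA, per the submitters' processing notes, which give no version. The log2 scale was read from their range, and no value is missing. They were used as deposited. Probe sets were named through a dated platform annotation and the RefSeq table of TAIR10.1: 13436 matched 1 gene of that table, 77 matched 1 gene outside it, 503 matched several and 8730 none. All 22746 were tested, and unmatched ones were left unnamed, so that a gene missing from the text was not necessarily unchanged. No sequences were used.

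Arrays were grouped by source name. The means of 12 groups were estimated together from the 26 arrays in limma 3.58.1, run in R 4.3.3, with moderated tests, so that the spread was pooled over groups of 2 or 3 arrays. P-values were adjusted by the Benjamini-Hochberg method within each comparison. Errors beside changes are standard errors of this fit. The fit was run on simulated arrays with noise drawn independently for each array. Such noise lacks the correlation between replicate deviations given below, so that run says nothing about its effect. The number of arrays limits the precision.

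Named genes were the 25 highest and 10 lowest among probe sets with 1 gene, a call and both SA arrays beyond both ethanol arrays (2 qualified as lowest), together with measured list members, and, of each gene family, called members and the one with the largest change. Counts over raised genes are over all 45 called higher that matched 1 gene. Members, lists and tests were chosen with earlier results of these data known. Alternatives were other normalizations, variance priors, filters, array sets and array weights, replicate numbers as a block, and each array left out.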

Additional observations from a re-analysis of the deposited data

Results flagged for a closer look

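For 12 of the 47 called genes the SA response at 24 h differed from the SA response at 3 h. This came from limma's test of the difference itself, which called 0.0659% of all probe sets. With only the groups of that test in the fit, 4 of the 45 raised genes were called. The difference, 24 h minus 3 h on the log2 scale, was 4.91 for AT5G22555, 4.37 for AT5G11420, 3.46 for AT2G44240, 3.31 for AT2G30670, 3.25 for AT1G24320, 3.12 for AT4G27850 and 2.82 for AT3G11370. It was 2.54 for AT1G59780, 2.43 for AT1G15640, 2.35 for CML43, 2.08 for AT2G30650 and 1.59 for AT3G27473, the last with an adjusted p of 0.0369. AT1G15640 is the gene of the 12 that was also called at 3 h.

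For 12 of them the SA effect with ABA differed from the SA effect without ABA at 24 h, in a test added after the data were seen. The difference, with ABA minus without ABA on the log2 scale, was -5.05 for cwINV6, -4.94 for AT5G22555, -3.47 for AT5G03350, -3.43 for AT2G44240, -3.27 for AT2G30670, -3.16 for AT5G41280 and -3.16 for AT3G11370. It was -2.76 for AT3G23190, -2.41 for AT4G27850, -2.18 for AT1G59780 and -1.91 for AT4G25090 (adjusted p = 0.0445). For AT5G17600, called lower in SA minus ethanol at 24 h, it was 1.28 (adjusted p = 0.0314). AT5G22555, AT2G44240, AT4G27850, AT2G30670, AT3G11370 and AT1G59780 differed in both tests. Both tests contain the 24 h SA and ethanol arrays by which these genes were chosen, and AT2G30650 and AT4G25090 were named after their values were seen.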

How the results depend on the processing

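No called value of a gene named under the rule changed its direction under any alternative. In SA minus ethanol at 24 h, 85 probe sets were called; the count was 28 with only the groups of the comparison in the fit, 135 with array weights, and 63 to 98 with each array left out. Of the 47 called genes (45 higher, 2 lower) 14 were called under every alternative that tested them, 27 in each fit that left out 1 array, and 14 with only the groups of the comparison. SA minus ethanol at 3 h had 32 calls, 22 to 25 with an array left out. The difference between the times had 15 calls, 5 with only its groups, 8 without the dimmest probe sets (33.3%) and 8 to 18 with an array left out. ABA+SA minus ABA had 1585, 452 with only its groups, 3712 with array weights and 395 to 1155 with an array left out. The difference in the SA effect with and without ABA had 165, 86 with only its groups, 744 with array weights and 76 to 186 with an array left out. The cause was not tested in these cases.

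Replicates 1 and 2 carry a number in the labels, which do not say that it pairs arrays. With only 2 pairs, the deviations of SA and ethanol replicates at 24 h correlated at r = 0.699 over probe sets, those of ABA+SA at 24 h with SA and with ethanol at 24 h at 0.686 and 0.586, those of SA and ethanol at 3 h at 0.492, and those of SA at 24 h and 3 h at -0.134. With the replicate block over all groups 80 probe sets were called (79 higher, 1 lower), and with a block within each time, added later, 90; either kept 43 of the 47 called genes. With the replicate block and only the 4 arrays of the comparison, added after the data were seen, 423 were called (285 higher, 138 lower). The blocks over all arrays moved no other count by more than 1.5 times.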

Other observations

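The 4 arrays of combined hormones at 3 h, whose title and source name contradict each other, entered no comparison beyond the pooled spread. UGT76B1 measured 8.04 and 8.91 on the pair with the source name ABA+SA and the title ABA JA, and 11.52 and 11.96 on the pair with the source name ABA+JA and the title ABA SA. AT5G03350 measured 4.14 and 4.16 on the first pair and 6.98 and 8.22 on the second. AT1G19960 measured 3.22 and 3.05 on the first and 7.46 and 7.79 on the second. On ethanol arrays at 3 h the same genes measured 5.58 and 5.63, 4.14 and 4.43, and 3.61 and 3.44. From the list of jasmonate genes, JRG21 measured 10.43 and 11.31 on the first pair and 3.06 and 2.94 on the second. JOX4 measured 8.84 and 9.42 on the first and 4.27 and 4.09 on the second. Levels of JRG21, JOX4, AT5G03350 and AT1G19960 go with the titles rather than with the source names by which the arrays were grouped.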
